A study of Mus musculus with 9 samples.

Results

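The formative epiblast genes described here are Fgf5, Otx2, Pou3f1, Sox3, Sox4, Slc7a3 and Zic2, which were taken by symbol from the gene expression table and make up 7 of the 15074 genes used. RNA-seq was performed once for each of 9 conditions, which combine 3 mouse embryonic stem cell (ESC) lines with days 0, 2 and 4 of differentiation. WT ESCs are the line J1. 1KO ESCs were derived from J1 and lack both alleles of Dnmt1, and 1KO+1CI ESCs are 1KO ESCs that carry a transgene for catalytically inactive DNMT1 (DNMT1CI), driven by the CAG promoter and linked through an IRES to zeocin resistance. The transgenic line was made as more than 1 clone, and the columns of its 3 libraries bear the same number, whose meaning is not stated. At day 0 the cells were undifferentiated and grew with serum and LIF on mitomycin C-treated fibroblast feeders. For days 2 and 4 the feeders were depleted on gelatin, and the cells spent 1 day as embryoid bodies without LIF and the time after that as adherent cultures. Each condition has 1 library, so no condition has a measured replicate error.

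The formative state lies between the naive pluripotency of the preimplantation epiblast and the primed pluripotency that precedes gastrulation. Cells that enter it silence naive factors such as Zfp42 and Klf2 and switch on the FGF ligand gene Fgf5 and transcription factor genes such as Otx2 and Pou3f1, and they also raise the de novo methyltransferases DNMT3A and DNMT3B. DNMT1 copies CpG methylation onto newly replicated DNA. The comparison of the lines asks whether these genes come on at the same day with DNMT1, without it, and with the inactive protein.

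Expression is given as FPKM, the reads of a gene scaled to transcript length and library size, so that levels of different genes can be set beside each other. Fgf5, Otx2 and Slc7a3 have more than 1 RefSeq transcript. How transcripts were combined into 1 value is not given in the sources used here, so their levels compare less exactly with those of other genes. The depth recovered from the steps in the values was 20140000 to 27980000 reads a library. Dnmt1 itself was at 48.5 to 80.4 FPKM in the WT libraries, 12.3 to 17.4 in the 1KO libraries and 129 to 315 in the 1KO+1CI libraries, and thus followed the labels. The summed level of the 7 measured fibroblast markers at day 0 was 91.9 FPKM for WT, 181 for 1KO and 207 for 1KO+1CI, and 12.3 to 27.6 at days 2 and 4. Col1a1, the highest of them at day 0, was at 39.0, 76.0 and 74.4 FPKM there. The part of feeder RNA in the day 0 values was not tested. Naive ESC identity at day 0 was read from 11 markers, all of which were present in the table, with Zfp42 at 266 (WT), 312 (1KO) and 321 FPKM (1KO+1CI).

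The 7 genes lie on 5 chromosomes (GRCm38, which is mm10). Fgf5 is at chr5:98254184-98277030, Pou3f1 at chr4:124656807-124660655 and Zic2 at chr14:122475435-122479852 on the plus strand. Otx2 is at chr14:48657677-48673819, Sox3 at chrX:60891366-60893430, Sox4 at chr13:28948919-28953713 and Slc7a3 at chrX:101079210-101086020 on the minus strand. Otx2, Pou3f1 and Sox4 each overlap an annotated antisense gene (Otx2os1, Gm2164 and Gm26735), none of which has a row in the table. Whether the counting used strand is not given in the sources used here, so reads of these partners cannot be told apart from those of the 3 genes.

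Because DNMT1 acts on CpG dinucleotides, the 250 bases before a RefSeq transcription start are shown for the 3 genes for which the promoter table (GRCm38.p6) has an entry, with each CpG in capitals and the gene's own strand read 5′ to 3′. Entries for Pou3f1, Sox3, Slc7a3 and Zic2 are missing. The sequences cover chr5:98253934-98254183 for Fgf5, chr14:48665110-48665359 for the Otx2 start with the most CpGs of its 4 entries, and chr13:28953700-28953949 for Sox4.
Fgf5: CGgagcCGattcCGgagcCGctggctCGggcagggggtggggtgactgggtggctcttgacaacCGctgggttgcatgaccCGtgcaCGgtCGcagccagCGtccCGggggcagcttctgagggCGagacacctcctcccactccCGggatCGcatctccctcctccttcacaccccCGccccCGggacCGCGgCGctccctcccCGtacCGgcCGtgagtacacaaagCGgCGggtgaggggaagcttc
Otx2: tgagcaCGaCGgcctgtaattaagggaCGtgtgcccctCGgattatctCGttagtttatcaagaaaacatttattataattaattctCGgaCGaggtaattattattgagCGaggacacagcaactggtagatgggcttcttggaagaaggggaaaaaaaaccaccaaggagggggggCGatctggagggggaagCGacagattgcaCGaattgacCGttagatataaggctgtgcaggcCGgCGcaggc
Sox4: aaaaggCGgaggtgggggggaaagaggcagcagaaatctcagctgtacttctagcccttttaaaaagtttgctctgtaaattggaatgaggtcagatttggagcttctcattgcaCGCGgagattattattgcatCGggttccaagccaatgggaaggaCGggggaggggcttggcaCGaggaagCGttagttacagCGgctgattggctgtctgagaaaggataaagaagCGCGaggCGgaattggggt
The Fgf5 window holds 24 CpGs, and 12.0% of the 32851 promoters in the table have at least as many. The Otx2 window holds 14 CpGs (29.4% of promoters have at least as many) and the Sox4 window 11 (35.6%), against a median of 6 over all promoters. The other 3 Otx2 entries hold 6, 8 and 9 CpGs. No methylation value of these windows was analysed here. As Otx2 and Pou3f1 encode factors that bind DNA, the windows were also searched on both strands for the OTX core TAATCC and for the octamer ATGCAAAT of POU factors. The printed Otx2 window holds 1 OTX core, while the other 3 Otx2 entries and the other printed windows hold none. Of all promoters, 6.25% hold one. The octamer is in none of the printed windows and in 1.60% of all promoters. A match is a description of the letters and does not show binding.

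Fgf5 encodes a secreted FGF ligand and is the classical marker of the postimplantation epiblast. Its WT level started at 6.97 FPKM (day 0), dropped to 2.52 FPKM (day 2) and ended at 48.3 FPKM (day 4). The corresponding 1KO levels were 3.66, 14.7 and 86.4 FPKM, and those of 1KO+1CI 3.65, 16.7 and 67.0 FPKM. WT was thus highest of the lines at day 0 and lowest at days 2 and 4, and its day 2 library was the lowest of the 9. Day 2 over day 0, the FPKM ratio for WT was 0.361 (95% counting interval 0.241 to 0.543), that for 1KO 4.01 (3.02 to 5.50) and that for 1KO+1CI 4.57 (3.38 to 6.35). These intervals are exact binomial (Clopper-Pearson) ones on the estimated reads and cover counting error only. The WT value at day 2 rests on an estimated 37 reads, for the shorter of its 2 transcript lengths. From day 2 to day 4 Fgf5 had the largest increase of all 13288 genes tested in WT, by 3.81 in log2(FPKM + 1), and the increases in 1KO and 1KO+1CI were 2.48 and 1.94.

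Otx2 encodes a homeobox factor that directs the exit from the naive state. WT cells had 19.6, 31.2 and 58.6 FPKM at days 0, 2 and 4. The 1KO cells had 13.3, 41.9 and 59.4 FPKM, and the 1KO+1CI cells 17.2, 53.3 and 34.3 FPKM. The WT and 1KO values increased at each step, whereas the 1KO+1CI value was highest at day 2. The ratio of day 4 to day 2 was 1.88 for WT (1.75 to 2.01), 1.42 for 1KO (1.33 to 1.51) and 0.644 for 1KO+1CI (0.599 to 0.693).

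Pou3f1, also known as Oct6, encodes a POU factor of the epiblast and of neural and glial lineages. WT cells were at 14.5, 21.7 and 63.0 FPKM at days 0, 2 and 4. The 1KO values were 13.2, 67.5 and 42.1 FPKM and the 1KO+1CI values 10.6, 78.2 and 48.5 FPKM. Both lines without active DNMT1 peaked at day 2, at a level above that of WT at day 4, whereas the WT values increased to day 4. The ratio of day 2 to day 0 was 1.499 for WT (1.39 to 1.61), 5.11 for 1KO (4.82 to 5.42) and 7.37 for 1KO+1CI (6.89 to 7.90). On the log2(FPKM + 1) scale this gene ranked 3 among 13288 genes for its day 0 to day 2 increase in 1KO+1CI, 6 in 1KO and 1422 in WT.

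Sox3 encodes a SOXB1 factor, a close relative of SOX2 that marks the epiblast and early neural tissue. Its WT values were 7.32, 2.64 and 29.2 FPKM. The 1KO values were 5.43, 9.11 and 24.5 FPKM, and the 1KO+1CI values 3.92, 10.8 and 20.2 FPKM. WT was the highest of the lines at days 0 and 4 and the lowest at day 2, and as for Fgf5 its day 2 library was the lowest of the 9. Between days 0 and 2 the WT value changed by a ratio of 0.361 (0.291 to 0.442), the 1KO value by 1.68 (1.44 to 1.95) and the 1KO+1CI value by 2.76 (2.33 to 3.28). In WT the day 2 to day 4 increase of Sox3 ranked 3 among 13288 genes.

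Sox4 encodes a SOXC factor that is expressed in many progenitor cells. It had the smallest whole-course difference of the 7 genes in WT, with 19.5, 18.2 and 29.4 FPKM at days 0, 2 and 4. The 1KO values were 12.8, 26.4 and 27.6 FPKM and the 1KO+1CI values 16.0, 30.1 and 29.5 FPKM. In these lines nearly all of the increase lay before day 2: the ratio of day 4 to day 2 was 1.04 for 1KO (0.990 to 1.10) and 0.979 for 1KO+1CI (0.930 to 1.03), and both intervals include 1. In WT the same ratio was 1.61 (1.53 to 1.71).

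Zic2 encodes a zinc finger factor of the epiblast and the neural plate. WT values were 28.6, 21.3 and 56.4 FPKM, 1KO values 21.9, 30.1 and 56.2 FPKM, and 1KO+1CI values 27.6, 29.9 and 40.5 FPKM. The day 4 levels of WT and 1KO lay together and that of 1KO+1CI was lower, with a ratio to WT of 0.718 (0.677 to 0.760). For the day 0 to day 2 step the WT ratio was 0.747 (0.692 to 0.806), the 1KO ratio 1.37 (1.28 to 1.48) and the 1KO+1CI ratio 1.09 (1.01 to 1.16).

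Slc7a3 encodes a transporter of cationic amino acids such as arginine and lysine, and it is the only one of the 7 genes that encodes no secreted factor or transcription factor. It was the most highly expressed of them in 8 of the 9 libraries, with 43.3, 101 and 122 FPKM for WT, 51.8, 87.3 and 94.0 FPKM for 1KO, and 43.8, 75.8 and 85.5 FPKM for 1KO+1CI. The exception was 1KO+1CI at day 2, where Pou3f1 was higher. At day 2 WT was the highest of the lines for Slc7a3, whereas it was the lowest for each of the other 6 genes. From day 0 to day 2 its ratio was 2.33 for WT (2.21 to 2.45), 1.69 for 1KO (1.61 to 1.77) and 1.73 for 1KO+1CI (1.64 to 1.82).

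**Figure D1:**
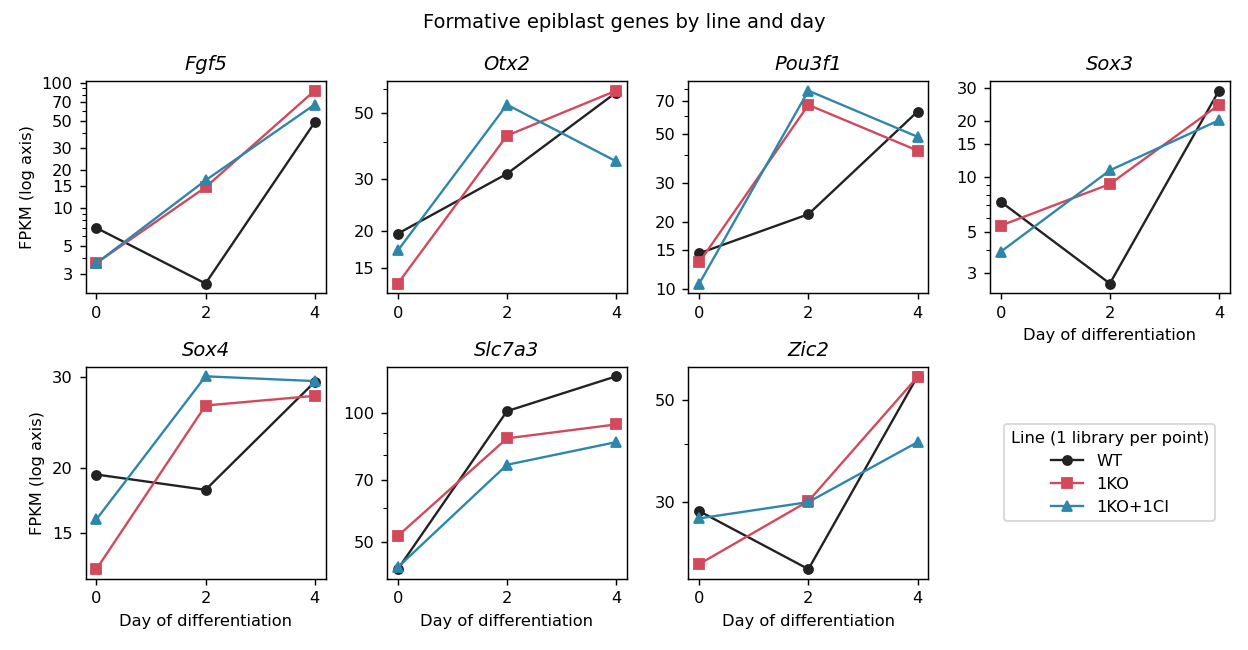
FPKM on a log axis against the day of differentiation for each of the 7 genes, with 1 library per point, in WT (black circles), 1KO (red squares) and 1KO+1CI (blue triangles). For Fgf5 and Sox3 the WT point at day 2 (2.52 and 2.64 FPKM) is the lowest of the 9, and for Pou3f1 the points of 1KO and 1KO+1CI at day 2 (67.5 and 78.2 FPKM) lie above every WT point.

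The steps of the genes were compared between the lines as differences in log2(FPKM + 1), and a difference over 1 was counted as over 2-fold. From day 0 to day 2 the WT value increased for 3 of the 7 genes, and 1 of them, Slc7a3, passed 2-fold, while Fgf5 and Sox3 were over 2-fold lower. Of all genes tested in WT, 2.48% were over 2-fold higher and 4.39% over 2-fold lower at this step. In 1KO all 7 values increased from day 0 to day 2 and 3 passed 2-fold (Fgf5, Otx2 and Pou3f1), against 1.57% of all genes. Sox4 in 1KO was just under the limit at 0.993, and its FPKM ratio, without the added 1, was 2.07 (1.95 to 2.20). In 1KO+1CI all 7 increased and 4 passed 2-fold (Fgf5, Otx2, Pou3f1 and Sox3), against 2.05% of all genes. The median step of the 7 genes was -0.09 for WT, 0.99 for 1KO and 1.26 for 1KO+1CI, and the median over all genes tested was -0.01, 0.00 and 0.05 for the same lines.

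From day 2 to day 4 the order of the lines was the opposite. All 7 values increased in WT and 4 passed 2-fold (Fgf5, Sox3, Pou3f1 and Zic2; 4.34% of all genes), with a median step of 1.36. In 1KO 6 increased and 2 passed 2-fold (Fgf5 and Sox3; 4.42% of all genes), with a median of 0.49. In 1KO+1CI 4 increased and 1 passed 2-fold (Fgf5; 4.11% of all genes), with a median of 0.17. The early and the late step share the day 2 library, so a value that is low there makes the first step smaller and the next one larger. Over the whole course, from day 0 to day 4, the WT median was 1.53, the 1KO median 1.60 and the 1KO+1CI median 0.96. All 7 values were higher at day 4 than at day 0 in every line, by over 2-fold for 5 genes in WT (2.25% of all genes), 6 in 1KO (4.73%) and 3 in 1KO+1CI (5.42%).

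**Figure D2:**
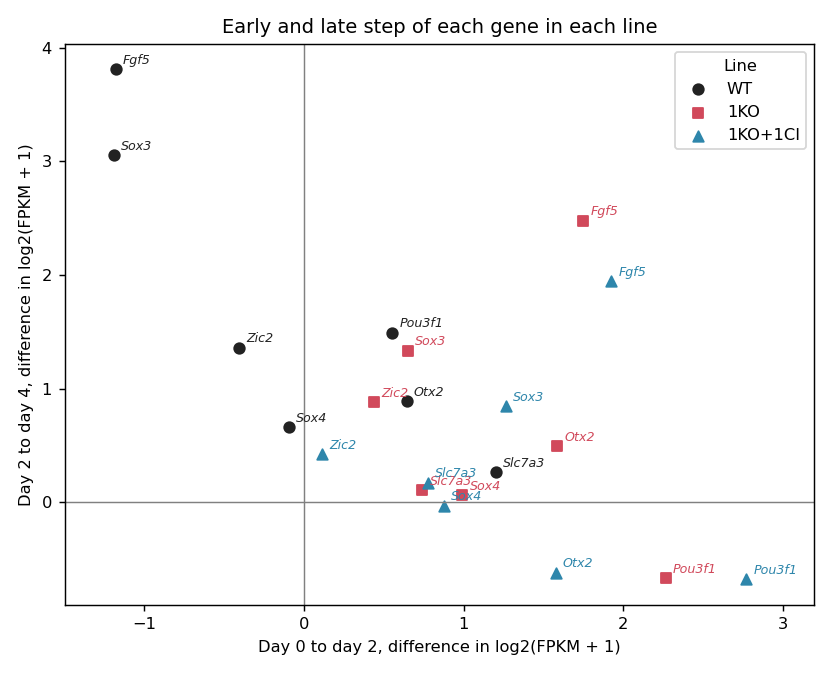
The day 0 to day 2 step (x axis) against the day 2 to day 4 step (y axis) of each gene in each line, both as differences in log2(FPKM + 1). The WT points of Fgf5 and Sox3 lie at the upper left (-1.18 and 3.81, and -1.19 and 3.05), and the Pou3f1 points of 1KO and 1KO+1CI at the lower right (2.27 and -0.67, and 2.77 and -0.68).

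Another way to place the day 2 cells is to set them on the WT scale. WT cells at day 2 had reached 5.21% to 83.0% of their own day 4 FPKM, with a median of 37.9% over the 7 genes. 1KO cells at day 2 were at 30.4% to 107% of the WT day 4 level (median 71.6%) and 1KO+1CI cells at 34.6% to 124% (median 62.3%). In log2(FPKM + 1) the day 2 value was nearer to WT day 4 than to WT day 2 for 3 genes in 1KO (Fgf5, Pou3f1 and Sox4) and for 5 in 1KO+1CI (these 3, Otx2 and Sox3). Otx2 and Sox3 lay near the middle in 1KO and crossed it when the libraries were rescaled to a common sum, which makes the count 5 there as well. Slc7a3 and Zic2 stayed nearer to WT day 2 in both lines.

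At matched days the line values were compared with those of WT. At day 2 the 1KO value exceeded the WT value for 6 of the 7 genes, with a median difference of 0.52, and 3 of them (Fgf5, Pou3f1 and Sox3) were over 2-fold higher, against 1.81% of all genes. The FPKM ratio to WT was 5.84 for Fgf5 (4.06 to 8.49), 3.10 for Pou3f1 (2.95 to 3.27) and 3.45 for Sox3 (2.84 to 4.25). In 1KO+1CI at day 2 the median difference from WT was 0.75, 6 genes were higher, and Fgf5 (ratio 6.63, 4.62 to 9.59), Pou3f1 (3.60, 3.42 to 3.78) and Sox3 (4.10, 3.38 to 5.02) passed 2-fold, against 2.58% of all genes. Slc7a3 was lower than in WT at that day, with ratios of 0.865 in 1KO (0.830 to 0.900) and 0.751 in 1KO+1CI (0.719 to 0.783). Markers of other cell types differed from WT at day 2 as well. All 7 measured feeder fibroblast markers were higher in both lines, by medians of 0.36 (1KO) and 0.79 (1KO+1CI). Of the 10 primitive endoderm markers that passed the low-value filter, 8 were higher in 1KO (median 0.26, 0 over 2-fold) and 10 in 1KO+1CI (median 0.65, 4 over 2-fold). Gata6, Sox17, Foxa2, Pdgfra and Cubn were under 1 FPKM in every WT library. They passed the filter only through the other lines, so these counts follow partly from the filter. The part of such markers in the day 2 values was not tested. Both lines are set against the same WT libraries, so these comparisons are not independent.

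None of the 7 genes differed by over 2-fold between a line and WT at day 0 or day 4. Of all genes, 2.54% were over 2-fold higher and 1.76% lower in 1KO at day 0, 1.89% and 0.67% in 1KO at day 4, 2.88% and 2.24% in 1KO+1CI at day 0, and 3.42% and 1.15% in 1KO+1CI at day 4. The day 0 median difference was -0.37 for 1KO and -0.27 for 1KO+1CI, and Slc7a3 was the only one of the 7 that was higher than in WT, with a ratio of 1.19 in 1KO (1.13 to 1.26) and of 1.01 in 1KO+1CI (0.952 to 1.07). The markers of feeder fibroblasts differed in the other direction at that day, with all 7 measured ones higher than in WT by a median of 0.94 (1KO) and 1.47 (1KO+1CI). The day 4 medians were -0.09 for 1KO and -0.47 for 1KO+1CI, and Fgf5 was higher than in WT, with ratios of 1.79 (1.62 to 1.98) and 1.39 (1.25 to 1.54). Otx2 (0.586, 0.546 to 0.630) and Pou3f1 (0.770, 0.738 to 0.804) were among the genes that were lower in 1KO+1CI than in WT at day 4. At that day all 10 primitive endoderm markers that passed the low-value filter were also higher in 1KO+1CI than in WT, by a median of 0.97. Gata6, Sox17, Foxa2, Pdgfra and Cubn passed that filter only through the lines other than WT, so this count too follows partly from the filter. The part of a change in cell types in the day 4 values was not tested. In such bulk libraries, fewer cells of a type and less RNA per cell cannot be told apart.

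**Figure D3:**
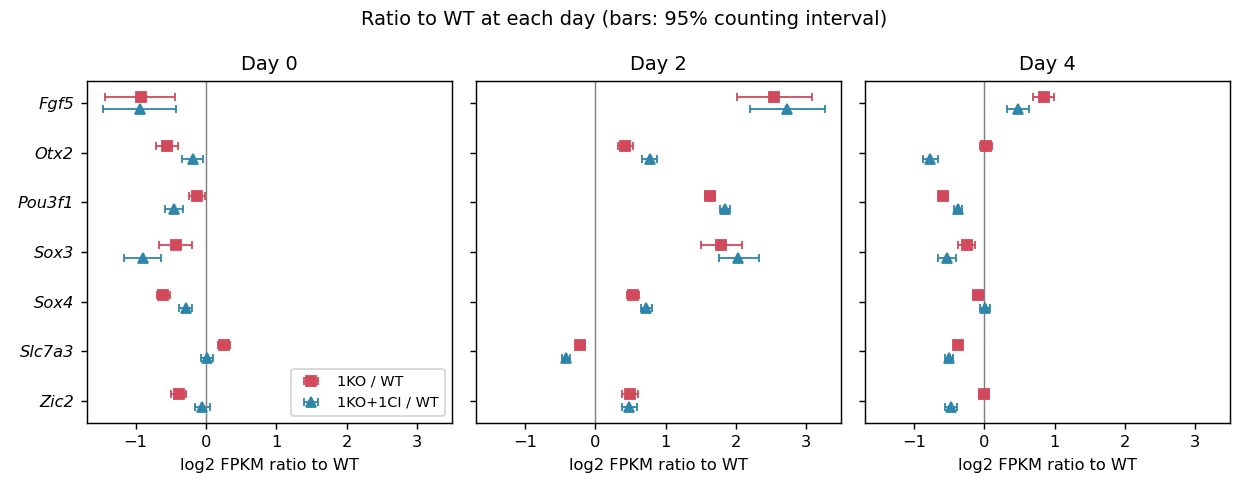
Log2 of the FPKM ratio of 1KO (red squares) and 1KO+1CI (blue triangles) to WT at days 0, 2 and 4 for the 7 genes, where the bars are 95% intervals for counting error alone. At day 2 the points of Fgf5, Pou3f1 and Sox3 lie to the right of 1 (ratios of 3.10 to 6.63), and the points of Slc7a3 lie to the left of 0.

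The inactive protein was compared with its absence by setting 1KO+1CI cells against 1KO cells. None of the 7 genes differed by over 2-fold between these lines at any day (0.203% of all genes were over 2-fold higher and 0.271% lower at day 0, 0.173% and 0.211% at day 2, and 0.707% and 0.331% at day 4). The median difference of 1KO+1CI minus 1KO went from 0.00 at day 0 over 0.18 at day 2 to -0.27 at day 4. The largest single difference was that of Otx2 at day 4, with a ratio of 0.578 (0.538 to 0.620). Zic2 (0.720, 0.680 to 0.762) and Fgf5 (0.775, 0.708 to 0.849) were also lower at that day, whereas Pou3f1 was higher (1.15, 1.10 to 1.21).

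A test over libraries was possible only by letting lines or days stand for replicates. In limma with additive terms for line and day over the 9 libraries (4 residual degrees of freedom), all 7 genes rose from day 0 to day 4, against 12.5% of the 13288 genes tested, at Benjamini-Hochberg adjusted p from 0.000982 (Slc7a3) to 0.0171 (Sox4). The mean rise was 3.58 (standard error 0.51) for Fgf5, 1.98 (0.41) for Sox3, 1.91 (0.41) for Pou3f1, 1.52 (0.27) for Otx2, 1.09 (0.13) for Slc7a3, 0.94 (0.19) for Zic2 and 0.82 (0.19) for Sox4. From day 0 to day 2 the limma fit called Slc7a3 (adjusted p 0.00378), Otx2 (0.0173) and Pou3f1 (0.0196), against 8.65% of all genes called higher. From day 2 to day 4 the same test called Fgf5 (0.00766), Zic2 (0.0134) and Sox3 (0.0187), against 12.5% of all genes. These calls depend on which lines are in the fit. Without the WT libraries 6 genes (all but Zic2) were called higher from day 0 to day 2, against 11.1% of all genes, and Pou3f1 was called lower from day 2 to day 4, with a difference of -0.67 (limma adjusted p 0.0125; 14.5% of all genes). Without the 1KO libraries 0, 0 and 2 genes were called higher for the early step, the late step and the whole course, against 0.181%, 0.293% and 1.51% of all genes. Without the 1KO+1CI libraries the numbers were 1, 3 and 5, against 1.06%, 4.37% and 2.63%.

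For the mean over the 3 days, the same limma fit called 0 of the 7 genes between any pair of lines. Of all genes, 0.873% were called higher and 1.64% lower in 1KO than in WT, 2.13% and 2.69% in 1KO+1CI than in WT, and 0.00753% higher and 0% lower in 1KO+1CI than in 1KO. At an unadjusted p under 0.05 the number was 0 for 1KO against WT, 1 (Slc7a3) for 1KO+1CI against WT and 0 for 1KO+1CI against 1KO, where 15.5%, 21.6% and 3.7% of all genes had such a p, and limma without a variance trend also called 0. A mean over days leaves out differences in timing, since a value that is higher at day 2 and lower at day 0 cancels.

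The timing was therefore tested in a fit added after the data were seen, in which 1KO and 1KO+1CI share 1 day course and WT has its own. The 2 residual degrees of freedom come from the differences between 1KO and 1KO+1CI, which are different genotypes and serve here as repeats of 1 course, and WT has 1 library per day. For the step from day 0 to day 2 limma gave a difference in course of 3.02 for Fgf5 (standard error 0.25, adjusted p 0.0135), 2.15 for Sox3 (0.29, 0.0389) and 1.97 for Pou3f1 (0.25, 0.0333). These 3 were called higher, against 0.504% of all genes. The limma difference was 1.03 for Sox4 (adjusted p 0.0603), 0.94 for Otx2 (0.350), 0.68 for Zic2 (0.309) and -0.44 for Slc7a3 (0.211), which did not pass. From day 2 to day 4 Pou3f1 was called lower by limma, with a difference of -2.17 (adjusted p 0.0266; 0.0602% of all genes), whereas Sox3 (-1.96, 0.0553) and Fgf5 (-1.60, 0.0600) did not pass. Over the whole course from day 0 to day 4 Fgf5 was called higher by 1.42 (limma adjusted p 0.0363; 1.88% of all genes). Most of these calls rested on the variance trend. In limma without it, Fgf5 alone was called for the early step (adjusted p 0.0472; 0.128% of all genes), and the calls of Pou3f1 for the late step (0.0839) and of Fgf5 for the whole course (0.0593) were lost. Without the low-value filter Fgf5 was also the only one of the 7 called for the early step (limma adjusted p 0.0256; 0.0862% of all genes), while the calls for the late step and the whole course passed.

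**Figure D4:**
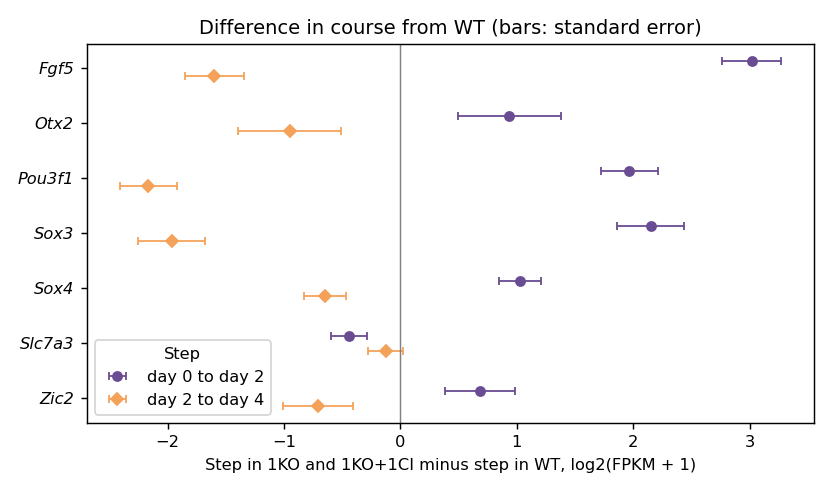
The step of 1KO and 1KO+1CI minus the step of WT, in log2(FPKM + 1), for the day 0 to day 2 step (purple circles) and the day 2 to day 4 step (orange diamonds), where the bars are standard errors of the limma fit. Fgf5, Sox3 and Pou3f1 lie furthest to the right for the early step (3.02, 2.15 and 1.97), and Slc7a3 lies left of 0 at both steps.

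The 13 other genes of the formative state that were examined, none of them a member, did not move as 1 group. By the additive limma fit 4 of the 13 rose from day 0 to day 4 (Dnmt3b, Grhl2, Lin28b and Sall2; 12.5% of all genes). In the same fit 1 fell (Tcf15; 1767 of 13288 genes). At day 2, 11 of the 13 were higher in 1KO than in WT and 10 in 1KO+1CI, by medians of 0.41 and 0.43. Of them, 2 were over 2-fold higher in each line (1.81% and 2.58% of all genes). At day 0, 10 of the 13 were already higher in each line, by medians of 0.53 (1KO) and 0.16 (1KO+1CI). At that day 4 were over 2-fold higher in each line (2.54% and 2.88% of all genes) and 1 over 2-fold lower (1.76% and 2.24%). Sall2 encodes a zinc finger factor. Its values were 9.34, 8.05 and 28.9 FPKM for WT, 3.87, 18.4 and 23.3 FPKM for 1KO and 3.76, 24.0 and 19.2 FPKM for 1KO+1CI. The difference in course of Sall2 to day 2 was 2.39 (limma adjusted p 0.0270, 0.0606 without the variance trend and 0.0518 without the low-value filter). Etv4 passed the same test in the other direction, with -1.75 (limma adjusted p 0.0496; 33 of 13288 genes were called lower). The genes called lower at this step fell to 4 of 13288 without the variance trend and to 4 of 15074 without the low-value filter. Whether Etv4 was among them was not examined. By day 2 Etv4 went from 9.17 to 37.8 FPKM in WT. The change was from 29.4 to 30.9 FPKM in 1KO and from 21.9 to 26.9 FPKM in 1KO+1CI. Dnmt3b, which encodes a de novo DNA methyltransferase, had 73.6, 115 and 390 FPKM in the WT libraries, 107, 224 and 328 FPKM in those of 1KO and 87.6, 220 and 226 FPKM in those of 1KO+1CI. Dnmt3a, the other de novo methyltransferase gene, was at 16.7, 32.8 and 39.7 FPKM in WT and peaked at day 2 in 1KO (20.6, 51.8 and 18.3 FPKM) and 1KO+1CI (18.7, 55.8 and 15.5 FPKM). Its late step differed from that of WT by -1.89 (limma adjusted p 0.0241, and 0.0715 without the variance trend). For Foxd3 the lines differed before differentiation. It increased from 4.56 to 19.7 FPKM in WT by day 2, and the day 0 levels of 1KO (19.0 FPKM) and 1KO+1CI (18.4 FPKM) were already near the latter.

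Relatives of the 7 genes were examined to see whether a family moved together. Of 16 relatives, 4 have no row and 7 passed the low-value filter. From day 0 to day 2 the additive limma fit called 2 of these 7 higher (Slc7a1 and Sox11; 8.65% of all genes) and 0 lower (1173 of 13288 genes). From day 2 to day 4 it called 4 lower (Fgf4, Sox2, Sox1 and Slc7a1; 1763 of 13288 genes). Fgf4, the FGF ligand gene of naive cells, had WT values of 36.4, 54.5 and 21.4 FPKM, 1KO values of 31.8, 42.7 and 6.11 FPKM and 1KO+1CI values of 38.3, 40.7 and 5.14 FPKM, and it fell from day 2 to day 4 while Fgf5 rose. Sox2, the SOXB1 gene of the core pluripotency network, had WT values of 206, 199 and 83.5 FPKM, 1KO values of 187, 164 and 59.1 FPKM and 1KO+1CI values of 173, 159 and 61.1 FPKM, and fell over the course by 1.47 (limma adjusted p 0.000107), whereas Sox3 rose. Sox11, a SOXC gene like Sox4, rose from day 0 to day 4 by 1.45 (limma adjusted p 0.00312). Slc7a1, which encodes another cationic amino acid transporter, peaked at day 2 in each line, at 22.5 (WT), 31.1 (1KO) and 26.9 FPKM (1KO+1CI), while Slc7a3 was highest at day 4. Of the FGF receptor genes, Fgfr1 was at 19.5 to 38.2 FPKM and Fgfr2 at 2.31 to 7.10 FPKM, and the additive limma fit called neither at any step.

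**Figure D5:**
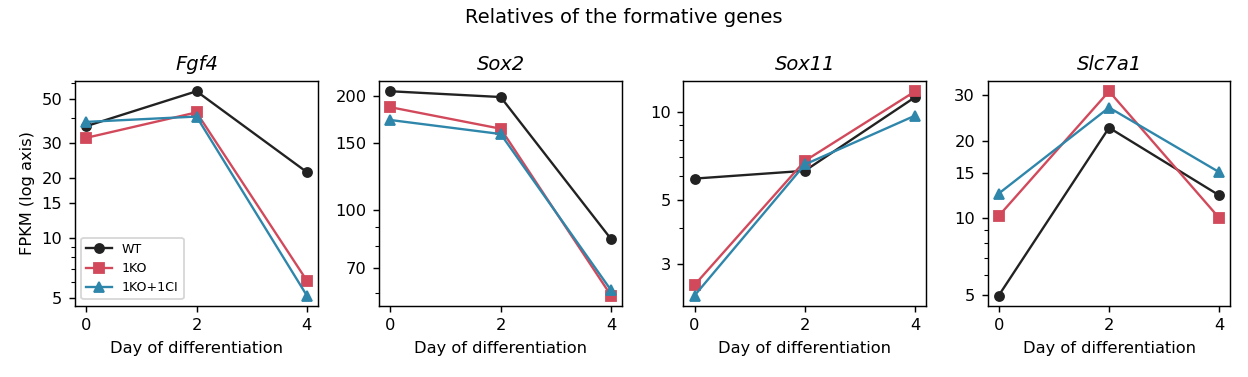
FPKM on a log axis against the day of differentiation for Fgf4, Sox2, Sox11 and Slc7a1, relatives of Fgf5, Sox3, Sox4 and Slc7a3, with 1 library per point and the lines marked as in the plot of the 7 genes. Fgf4 and Sox2 end below their day 0 values in every line (21.4, 6.11 and 5.14 FPKM for Fgf4 in the order WT, 1KO, 1KO+1CI), and Slc7a1 is highest at day 2.

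The courses of the 7 genes were compared in shape over the 9 libraries. Across the 21 pairs, Pearson's r of log2(FPKM + 1) ranged from 0.54 to 0.97 with a median of 0.75, as a description of 9 libraries that share lines and days. Fgf5, Sox3 and Zic2 had r of 0.92 to 0.97 with each other. Otx2, Pou3f1 and Sox4 had r of 0.90 to 0.92 with each other. The WT value was lowest at day 2 for Fgf5, Sox3 and Zic2 and also for Sox4. Among 12146 other genes with a mean of at least 1 FPKM, the 3 most like Fgf5 were Mmp25 (r = 0.99), Ocln (0.99) and Plcl2 (0.98). Mmp25 had 5.57, 2.57 and 16.5 FPKM in the WT libraries and 2.74, 6.37 and 17.9 FPKM in those of 1KO. The genes most like Sox3 were Asphd2 (0.99), Zcrb1 (0.98) and Lin28b (0.97), those most like Otx2 were Amer1 (0.99), Zfp442 (0.98) and Prkd3 (0.98), and those most like Pou3f1 were Zfp54 (0.98), Cacna1b (0.98) and Tmod2 (0.96). Sox4 was followed most closely by Bicdl2 (0.97), Sall2 (0.97) and Fgfbp3 (0.97). For Slc7a3 they were Gars (0.98), which encodes a tRNA synthetase, Psat1 (0.97), which encodes an enzyme of serine synthesis, and Wipi2 (0.97). For Zic2 they were 6330403K07Rik (0.97), 2610035F20Rik (0.97) and Spock2 (0.97). Several of these genes were at low levels. Plcl2, Asphd2, Zfp442, Cacna1b, Bicdl2, Fgfbp3 and 6330403K07Rik were under 1 FPKM in their lowest library and reached at most 3.67 FPKM. Zfp54 (1.25 to 3.99 FPKM) and Tmod2 (1.055 to 2.95 FPKM) were low too. 2610035F20Rik lies at chr14:122470284-122475199 on the minus strand, with 236 bases between its start and that of Zic2, and it had WT values of 3.04, 2.26 and 8.58 FPKM, 1KO values of 2.80, 4.11 and 7.63 FPKM and 1KO+1CI values of 3.72, 4.27 and 4.71 FPKM.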

How the data were processed

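RNA-seq of 9 libraries (poly(A)-selected RNA, paired-end) was used. The authors used Trim Galore for trimming and HISAT2 for mapping to mm10, and deposited FPKM values per gene from HOMER analyzeRepeats.pl. Tool versions, annotation release and strand setting were not given in the sources used here. Of 15095 entries, 21 were left out (1 named 0, 20 with dates as symbols). The repeat table was not used. Values were compared as log2(FPKM + 1) over the 13288 genes with at least 1 FPKM in some library. Depth was recovered from the steps of FPKM times transcript length in genes with 1 RefSeq transcript, and reads were estimated with the shortest transcript. If a step is not 1 read, the intervals, which cover counting error only, change. For Fgf5, Otx2 and Slc7a3, with more than 1 transcript, the estimated reads and intervals are approximate. limma 3.58.1 (R 4.3.3, Benjamini-Hochberg, threshold 0.05, variance trend) was fitted with additive line and day terms, and afterwards with a WT course against a shared course of the other lines. Python 3.11.15 was used elsewhere. Scripts were tested on simulated data. Positions are from GENCODE M21, promoters from RefSeq.

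The genes and gene lists were chosen with earlier results of these data known. All 7 genes are named, list genes with their values, the 3 genes with the highest Pearson correlation to each of the 7, and Dnmt1. A listed relative of the 7 genes was left out and is not reported here. Pseudocounts of 0.1 and 0.01, a common sum per library (TPM), median-ratio scaling, no filter, no trend and leaving out each line were tried. The labels give no replicate numbers.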

Additional observations from a re-analysis of the deposited data

Results flagged for a closer look

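The values here were picked out because a gene moved in opposite directions in different lines over the same step, or because the difference in course from WT passed the limma test. Differences are in log2(FPKM + 1) and give the step of the first-named line minus that of the other.

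From day 0 to day 2 the WT value was below its day 0 level for 4 genes that were higher at day 2 in both other lines. The difference in this step was 2.93 (1KO against WT) and 3.11 (1KO+1CI against WT) for Fgf5, 1.85 and 2.46 for Sox3, 1.09 and 0.97 for Sox4, and 0.84 and 0.52 for Zic2. From day 2 to day 4 Pou3f1 was lower in 1KO and 1KO+1CI and higher in WT, with differences of -2.16 and -2.17. Otx2 was lower at day 4 than at day 2 in 1KO+1CI and higher in the other lines, with differences of -1.51 against WT and -1.11 against 1KO. These differences between pairs of lines were not tested, as each condition has 1 library.

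In the limma fit with 1 course shared by 1KO and 1KO+1CI, the difference from WT passed for Fgf5 from day 0 to day 2 (3.02) and from day 0 to day 4 (1.42), for Sox3 from day 0 to day 2 (2.15), and for Pou3f1 from day 0 to day 2 (1.97) and from day 2 to day 4 (-2.17). Without the variance trend only the early step of Fgf5 passed. All of these compare with the same 3 WT libraries.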

How the results depend on the processing

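No paired analysis was possible because each condition has 1 library and the labels carry no replicate numbers. Of 194 summary values recomputed under an alternative, 171 stayed within the limits set for a change, and of 168 values of single genes, 159 did. The sign turned for 1 of these single values, Zic2 in 1KO minus WT at day 4 (-0.0041, and 0.055 with TPM), and for 1 median, that of 1KO+1CI minus 1KO at day 0 (-0.0029, 0.050 with TPM and 0.025 with median-ratio scaling). Of 315 additive limma values of the 7 genes under an alternative, 7 had the other sign, and 0 of these had been called with all libraries. They were Pou3f1 from day 2 to day 4 (0.048, -0.049 with TPM and -0.67 without WT), Zic2 in 1KO+1CI minus WT and Otx2 in 1KO+1CI minus 1KO with TPM (0.026 and 0.010), Otx2 from day 2 to day 4 without WT (-0.063), and the early step of Zic2 without 1KO (-0.15) and of Sox3 without 1KO+1CI (-0.27). Rescaling to a common sum (TPM) moved the count of genes nearer to WT day 4 in 1KO to 5 and the median of 1KO+1CI minus WT at day 4 to -0.36, and shifted the median of all genes by -0.13 for WT day 4 minus day 2. In the additive limma fit, leaving out the 1KO libraries left 77, 151 and 638 genes called of the whole table for the early step, the late step and the whole course (2323, 3419 and 3429 with all libraries) and 0, 0 and 2 of the 7. Leaving out the 1KO+1CI libraries left 363, 1292 and 986 genes, and 1 of the 7 for the early step. Without WT, 6 of the 7 were called for the early step. The fit of the difference in course, chosen after seeing the data, called 100, 25 and 415 genes for the early step, the late step and the whole course. Without the low-value filter it called 17 genes and 1 of the 7 for the early step. Without the variance trend it called 21 genes and 1 of the 7, 0 genes and 0 of the 7, and 266 genes and 0 of the 7, with 1965 genes at an unadjusted p under 0.05 for the late step. With median-ratio scaling it called 57 genes and 2 of the 7 for the late step. The cause of these shifts was not tested, except that fits without a line have 2 residual degrees of freedom. The WT course rests on 1 library per day, and Fgf5 in WT at day 2 on an estimated 37 reads.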

Other observations

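The median fall of the 11 naive pluripotency genes from day 0 to day 4 was 3.67 on the log2 scale. The additive limma fit called 10 of them lower, against 1767 of 13288 genes. The exception was Nanog (limma adjusted p 0.193), a core pluripotency factor gene with 163, 89.5 and 56.8 FPKM for WT, 205, 58.8 and 171 FPKM for 1KO and 232, 40.9 and 157 FPKM for 1KO+1CI. From day 0 to day 2, 7 of the 11 values increased in WT and 1 in each of the other lines. Their summed level at day 2 was 896 FPKM for WT, 535 for 1KO and 417 for 1KO+1CI, against 838, 991 and 1038 FPKM at day 0. Zfp42, a zinc finger gene of naive cells, had day 2 values of 336 (WT), 172 (1KO) and 131 FPKM (1KO+1CI). Its difference in course to day 2 was -1.41 (limma adjusted p 0.0480, and 0.0919 without the variance trend). This call was also lost with pseudocounts of 0.1 (limma adjusted p 0.0542) and 0.01 (0.0547), with TPM (0.0586) and without the low-value filter (0.0730). It passed with median-ratio scaling (limma adjusted p 0.0416). Tfcp2l1, a naive transcription factor gene, had day 2 values of 25.3 (WT), 9.40 (1KO) and 5.94 FPKM (1KO+1CI).

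Primitive streak genes were higher at day 4 without active DNMT1. Of the 6 listed genes that passed the low-value filter, 6 were over 2-fold higher in 1KO than in WT at day 4 (1.89% of all genes). In 1KO+1CI 5 were (3.42% of all genes). Mixl1, Evx1 and Lhx1 were under 1 FPKM in every WT library and passed the filter only through day 4 of the other lines. For these genes the counts follow partly from the filter. T, which encodes the mesoderm factor Brachyury, had 2.07 FPKM for WT, 29.2 for 1KO and 27.2 for 1KO+1CI at that day, and Fgf8, an FGF ligand gene of the streak, had 8.51, 84.5 and 63.0 FPKM. Of the 5 listed neuroectoderm genes that passed the filter, 0 exceeded the WT day 4 value by over 2-fold in either line. In each line 1 of them, Tubb3, was over 2-fold lower than in WT (0.67% of all genes in 1KO and 1.15% in 1KO+1CI). Tubb3 was at 50.9 (WT), 15.7 (1KO) and 22.4 FPKM (1KO+1CI) at day 4. Sox1, a neural SOXB1 gene and a relative of Sox3, was at 0.25 to 1.94 FPKM over the 9 libraries, and Hes5, Olig3, Lhx5 and Six3 have no row in the table used.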
